A study of Drosophila melanogaster with 3 samples.

Results

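Core promoter peaks are the peaks of the thresholded HHEX list whose summit, the position of the strongest signal in the peak, lay 100 bp or less from the nearest transcription start site (TSS) of a protein-coding gene. They were chosen by position alone, and numbered 976 of 5586 peaks (17.5%). The ChIP-seq (chromatin immunoprecipitation and sequencing) used entire mixed-sex Drosophila melanogaster embryos aged 0 to 24 h from a transgenic line that carries HHEX (CG7056), a homeodomain protein, with GFP fused to its C-terminus. An antibody against GFP was used on chromatin sonicated to 200 to 800 bp, in 3 biological replicates of 1 group, so no second genotype, treatment or age was compared. Each replicate has a deposited list of 30000 regions on genome build dm6, a further list of 30000 regions came from the pooled reads, and the thresholded list was made by the irreproducible discovery rate (IDR) procedure from those. Whole embryos hold many cell types, and the lists do not say in which of them a site was occupied.

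The core promoter is the stretch of DNA around a TSS on which RNA polymerase II and the general transcription factors assemble. In flies, genes used in most cells tend to have core promoters with the DNA replication-related element (DRE) or the words known as motif 1 and motif 7, and genes used in few cells more often have a TATA box or an initiator at a fixed distance from the TSS. Ribosomal protein genes carry a pyrimidine-rich start, the TCT motif, in place of the initiator. Homeodomain proteins typically bind short AT-rich words, and vertebrate HHEX is known to bind words with an ATTAA core.

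The sequences below are the starts of core promoters among the strongest peaks, shown because they hold different core promoter words or none of them. Each runs 5' to 3' on the strand of its gene from at most 100 bases before the TSS to 30 bases from it, and is shorter where the partner gene starts closer. Capitals mark a match to a core promoter word, for the TATA box, initiator and TCT words only at their usual place at the TSS, and the sequences are from the RefSeq copy of genome release 6, the assembly of dm6. Ugalt (chrX:2703823-2703952, minus strand), CG14100 (chr3L:19590495-19590624, minus strand), Chro (chr3L:22878955-22879084, minus strand) and CG13390 (chr2L:8376768-8376897, minus strand) have none of the words so marked; AT-rich homeodomain words, which occur in several of the sequences, are not marked. RpS27 (chr3R:25247485-25247614, minus strand) holds the E-box word CAGCTG, and CG11309 (chr3L:21304629-21304696, minus strand) holds GTATNTTT, a part of motif 6. RpL7 (chr2L:10200975-10201033, plus strand) holds the motif 1 word GGTCACAC on the opposite strand. The start of eEF1gamma (chr3R:29220072-29220201, plus strand) holds the DRE word TATCGATA and the motif 7 word CAGCNCT. RpL14 (chr3L:8600906-8601035, plus strand) and RpL23A (chr3L:1668625-1668754, minus strand) hold a TCT word at the TSS, CTTTC and CTTTT, and RpL23A also the initiator word TCAGT. MFS18 (chr2L:4448606-4448735, minus strand) holds a TATA box, TATAAA, at its usual distance.
Ugalt: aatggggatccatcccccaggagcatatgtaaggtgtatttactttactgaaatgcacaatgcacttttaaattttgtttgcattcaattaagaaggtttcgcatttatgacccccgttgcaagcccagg
CG14100: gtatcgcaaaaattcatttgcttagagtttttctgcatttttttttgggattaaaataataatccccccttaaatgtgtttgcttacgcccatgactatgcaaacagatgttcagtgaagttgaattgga
Chro: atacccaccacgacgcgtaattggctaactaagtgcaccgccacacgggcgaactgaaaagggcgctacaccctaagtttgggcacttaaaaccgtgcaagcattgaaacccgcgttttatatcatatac
CG13390: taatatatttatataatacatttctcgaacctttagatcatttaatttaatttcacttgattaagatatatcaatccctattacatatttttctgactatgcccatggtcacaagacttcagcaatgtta
RpS27: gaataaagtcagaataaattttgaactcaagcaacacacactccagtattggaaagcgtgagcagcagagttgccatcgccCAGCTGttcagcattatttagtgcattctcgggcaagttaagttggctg
CG11309: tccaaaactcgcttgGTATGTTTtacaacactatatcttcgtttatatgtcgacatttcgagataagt
RpL7: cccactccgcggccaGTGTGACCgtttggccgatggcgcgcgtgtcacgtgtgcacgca
eEF1gamma: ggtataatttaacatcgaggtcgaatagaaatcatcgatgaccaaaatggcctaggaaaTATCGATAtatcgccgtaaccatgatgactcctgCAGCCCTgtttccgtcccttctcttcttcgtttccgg
RpL14: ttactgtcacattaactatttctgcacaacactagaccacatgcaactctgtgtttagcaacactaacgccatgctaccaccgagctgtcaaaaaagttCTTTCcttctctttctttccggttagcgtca
RpL23A: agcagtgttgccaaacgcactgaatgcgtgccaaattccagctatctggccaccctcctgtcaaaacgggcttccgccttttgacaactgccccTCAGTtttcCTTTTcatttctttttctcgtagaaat
MFS18: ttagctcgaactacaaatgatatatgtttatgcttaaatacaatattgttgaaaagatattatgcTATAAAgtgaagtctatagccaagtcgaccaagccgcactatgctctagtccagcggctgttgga

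The values deposited for a region are a signal, whose unit was not given in the sources used here, and a −log10 q. Signals rank regions within a list, and the lists were not rescaled to each other. The number of reads is unknown. A −log10 q of 2 or more was reached by 9759, 3212 and 6498 regions in replicates 1, 2 and 3, so replicate 2 had the fewest. All replicates were called against a control alignment that was not analysed here, so HHEX sites cannot be told apart from regions that an anti-GFP immunoprecipitation enriches by itself. In the replicates, a core promoter region below means one of the 5586 highest-signal regions, as many as the IDR list holds, that met the same distance rule. There were 1008, 794 and 1025 of them. Statements on replicates use a two-sided exact sign-flip permutation test, whose smallest p with 3 replicates is 0.25.

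Core promoters were a larger share of the IDR list than of the weaker regions. Of 2931 pooled regions at core promoters, 976 (33.3%) were in the IDR list, against 18.6% of all pooled regions. The share of summits at core promoters was 17.5% in the IDR list and 7.64% among the 23262 pooled regions that overlap no IDR peak. In the replicates it was 18.0%, 14.2% and 18.3% among the highest regions and 9.70%, 4.19% and 8.84% among those below. The difference was 8.35, 10.02 and 9.51 percentage points, above 0 in 3 of 3 replicates (exact p = 0.25). Along the ranks of the pooled list, core promoters made up 16.0% of the first 1000 regions, 19.3% of ranks 4001 to 5000 and 4.70% of the last 1000. Peaks over 100 and up to 500 bp from a coding TSS, called proximal here, went from 38.7% of the first 1000 to 10.9% of the last, so in the pooled list the core promoter share, unlike the proximal one, was not highest at the top. The same held in replicates 1 and 3, with 13.9% and 16.6% of the first 1000, but in replicate 2 the first 1000 had the highest share, 20.1%.

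The signal of core promoter peaks was lower than that of peaks slightly farther out. Their median was 243 (quartiles 190 and 379), against 295 for the 1392 proximal peaks and 244 for the 3218 beyond. On the log2 scale the difference from the proximal peaks was −0.28 in the IDR list and −0.26, −0.28 and −0.19 in the replicates, below 0 in 3 of 3 (exact p = 0.25). Against all other peaks it was −0.08 in the IDR list and −0.05, 0.08 and −0.03 in the replicates, so replicate 2 went the other way (exact p = 1). Replicate signals here and below are those of the region over the IDR summit, at any rank, and peaks without such a region were left out. Of the 976 members, 952, 821 and 962 had one in replicates 1, 2 and 3. The effect of the peaks left out on these differences was not tested. Core promoters held 3 of the 10 strongest peaks, 16 of the strongest 100 and 160 of the strongest 1000.

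Ugalt, which encodes a UDP-galactose transporter, had the strongest peak of the IDR list, with a summit 35 bp upstream of its TSS. Its signal was 1691, 2009 and 1650 in replicates 1, 2 and 3, a mean of 1783 ± 197 (SD, n = 3), and it ranked 1 in each. The uncharacterised gene CG14100 followed with 1235, 1742 and 1264 (mean 1414 ± 285, SD, n = 3), at a summit 97 bp upstream and so close to the limit. PNPase, a mitochondrial exoribonuclease gene, had 967, 1106 and 945 (mean 1006 ± 87.2, SD, n = 3) with a summit 79 bp inside the gene. In all 3 genes the replicates were close in rank, and replicate 2 had the highest value. The other named members fell from 2800 at Chro to 1333 at MFS18 in the IDR list. They include GstE13, a glutathione transferase gene, with 539, 640 and 598, and Alg3, a mannosyltransferase gene of glycan synthesis, with 425, 760 and 595. Alg3 had one of the wider spreads of the 20, a coefficient of variation of 28.3%. TRAM, whose product acts in protein translocation at the endoplasmic reticulum, had 493, 569 and 468. Elp5, an Elongator subunit gene, had 371, 613 and 364, the widest relative spread of the 20 at 31.6%, with replicate 2 apart from the others. MFS18 had the narrowest, with 449, 447 and 435. The uncharacterised genes CG8360 and CG8320, both divergent, had 533, 502 and 529 and 464, 551 and 535.

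**Figure D1:**
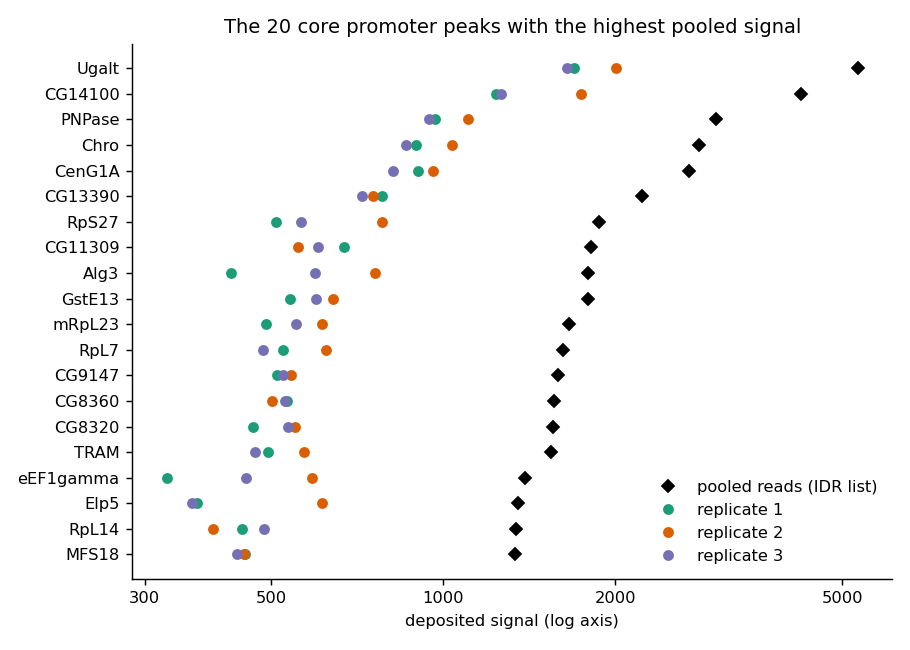
The deposited signal (log axis) of the 20 core promoter peaks with the highest pooled signal, named by nearest gene; circles are the 3 replicate lists and diamonds the IDR list, whose values come from pooled reads and have another scale. Ugalt was highest in every list, and Elp5 and Alg3 show wider spreads than MFS18.

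At the weak end of the list were Klp64D (a kinesin gene), pum (the translational repressor Pumilio), Ubr3 (a ubiquitin ligase), how (an RNA-binding protein of muscle and tendon) and Asph, all with a pooled signal of 156. At pum replicates 1 and 3 gave 74.4 and 54.3, and replicate 2 had no region over the summit. The Asph values were 23.5, 91.6 and 58.4, so replicate 1 was far below replicate 2. Just inside the limit, 100 bp upstream, were Phf5a with 826, Hap40 with 310 and Br140 with 185 in the IDR list; just outside, 1 bp farther, were fws with 1462, CG10413 with 1428 and POSH with 1293. The 3 outside were all stronger than the 3 inside, but the medians over a wider range were close. The last 20 bp inside the limit held 184 peaks, with a median signal of 268, and the first 20 bp outside it 173, with a median of 272.

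The same sites were found in most replicate lists, though in fewer of all 3 than other peaks. The summits of 789 members (80.8%) lay in a region of all 3 lists, against 89.9% of all IDR peaks. Within the highest regions 500 members (51.2%) were found in all 3 replicates, against 59.0% of all IDR peaks and 65.9% of the proximal peaks. A further 340 were found in 2 replicates, 122 in 1 and 14 in none. By replicate the share was 82.6%, 69.4% and 83.9%, beside 82.1%, 79.0% and 84.1% of all IDR peaks. The lower share was thus in replicate 2, and without that replicate 72.2% of members and 71.9% of all IDR peaks were found in both of the others. Signals at the members had Spearman's rho of 0.615 between replicates 1 and 2 (799 members), 0.722 between 1 and 3 (942) and 0.667 between 2 and 3 (807). These are descriptions across peaks that share libraries; the values for the proximal peaks were 0.750, 0.816 and 0.787. For the 789 members with a region in all 3 lists, the median coefficient of variation over the replicates was 23.1% (quartiles 13.7% and 35.9%). It was taken over signals that were not rescaled between lists.

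Summit positions were not identical between replicates. The replicate's own summit was a median of 17, 17 and 14 bp from the IDR summit. For the 789 members with 3 replicate summits, these spanned a median of 51 bp (quartiles 22 and 88). All 3 were within 100 bp of the same TSS for 501 members, and on the same side of it as the IDR summit for 568.

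Summits lay more often upstream of the TSS than inside the gene. Of the members 639 were upstream, 331 downstream and 6 on the TSS itself, which is 65.9% upstream of those not on it. The median offset was −28 bp (quartiles −67 and 19), where negative means upstream; it depends on the limit, being −7 bp with 50 bp and −65 bp with 200 bp. Genes on the plus strand had 66.7% upstream and genes on the minus strand 65.0%, with a median of −28 bp for both. In the replicates 57.2%, 76.2% and 64.0% were upstream, with median offsets of −12, −42 and −22 bp, so all 3 lay on the upstream side and replicate 2 the farthest. The excess over downstream summits was above 0 in 3 of 3 (exact p = 0.25). Core promoter regions below the highest-signal ones had 49.7% upstream in the pooled list and 50.7%, 56.4% and 50.9% in the replicates. The difference was 6.47, 19.8 and 13.1 percentage points (exact p = 0.25); this comparison was chosen after the data were seen.

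**Figure D2:**
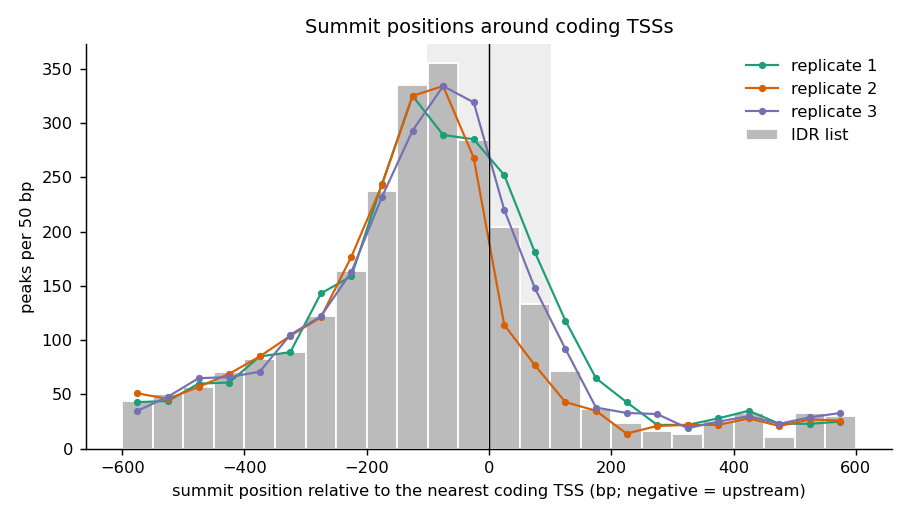
The number of summits per 50 bp by position relative to the nearest coding TSS in bp, for the IDR list (bars) and the highest-signal regions of each replicate (lines); the shaded band is the core promoter. The highest bar, 355 peaks, is 50 to 100 bp upstream, and the counts drop faster on the downstream side, most of all in replicate 2.

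In the IDR list the fullest 50 bp interval was 50 to 100 bp upstream with 355 summits, followed by 100 to 150 bp upstream with 335. The core promoter class thus takes in the downstream flank of a hump that continues past its upstream limit. Within 10 bp of the TSS were 108 members (11.1%), within 25 bp 243 and within 50 bp 495. Upstream members had a median signal of 266 and downstream members 217. In the replicates the medians were 92.2, 97.8 and 91.0 upstream and 90.7, 67.7 and 84.9 downstream, higher upstream in 3 of 3 by 0.02, 0.53 and 0.10 on the log2 scale (exact p = 0.25). Replicate 2 carries most of that difference. Of upstream members 370 (57.9%) were among the highest regions of all 3 replicates, and of downstream members 126 (38.1%), read beside the 59.0% of all IDR peaks given above.

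By annotation the summit was outside the nearest gene for 496 members (50.8%), in an untranslated exon for 382 (39.1%), in an intron for 92 (9.43%) and in a coding exon for 6. Of those outside, 33 lay in another coding gene and 463 outside every coding gene. Genes with more than 1 annotated TSS accounted for 546 members, and at 324 of these (59.3%) the nearest was the first TSS. Only 2 members had a nearer TSS of a non-coding gene or pseudogene. Members per arm numbered 124 on X, 195 on 2L, 197 on 2R, 211 on 3L, 248 on 3R and 1 on the small chromosome 4. Core promoters were 12.6% of the IDR peaks on X and between 17.6% and 19.5% on 2L, 2R, 3L and 3R.

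A coding gene was counted as served when one of its TSSs lay 100 bp or less from a member's summit. This gave 1034 of 13945 genes (7.41%), and 1064, 854 and 1080 in the replicates. Most members (900) served 1 gene, 73 served 2, 2 served 3 and 1 served 4. The nearest genes were 956, and 20 of them were the nearest gene of 2 members each. Among these were BEAF-32, which encodes an insulator protein, brat, a translational repressor of neural stem cells, and Diap1, an inhibitor of apoptosis. Served genes were longer than average, with a median of 3131 bp against 2166 bp for all coding genes, and 3593, 2675 and 3475 bp in the replicates. Genes with 1 exon were 4.74% of the served and 15.2% of all. Served genes had 1.91 annotated TSSs on average and all coding genes 1.41; more TSSs give more positions that can lie within 100 bp of a summit. With only the first TSS of each gene, the median length was 2746 bp.

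Divergent promoters, in which 2 coding genes start head to head within 500 bp, were frequent among the members. They made up 412 members (42.2%), against 24.96% of all coding genes (3481) and 20.4% of the core promoter regions that were weaker. The share of all coding genes used the first TSS of each gene, and that of members the nearest of all TSSs. With first TSSs for both, the share of members was 44.7%. In the replicates, with all TSSs, the share was 36.1%, 49.1% and 39.5%. It was above that of all coding genes by 11.1, 24.2 and 14.5 percentage points (exact p = 0.25), and above that of the replicate's own weaker core promoter regions by 10.7, 30.6 and 14.8 (exact p = 0.25). Replicate 2 had the largest excess, and the IDR peaks found in both other replicates were above all coding genes by 17.0 points. The distance between the TSSs had a median of 252.5 bp at the members and 247 bp over all divergent genes.

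Within the divergent pairs, 302 summits (73.3%) lay upstream of the nearest TSS and 110 on it or inside its gene. An upstream summit here is always between the TSSs, because one past the partner's TSS would be nearer to that. There were 54 summits within 100 bp of both TSSs. With summits on the TSS left out, the upstream share was 73.7% at divergent and 60.2% at other members. The upstream bias was thus also there without a partner gene. The median signal was 285 at divergent and 222 at other members. In the replicates it was 92.4, 108 and 92.6 against 91.4, 72.3 and 84.8, a log2 difference of 0.02, 0.59 and 0.13 (higher in 3 of 3, exact p = 0.25), again carried mostly by replicate 2. Of the divergent members 246 (59.7%) were in the highest regions of all 3 replicates and of the others 254 (45.0%), where all IDR peaks had 59.0%.

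**Figure D3:**
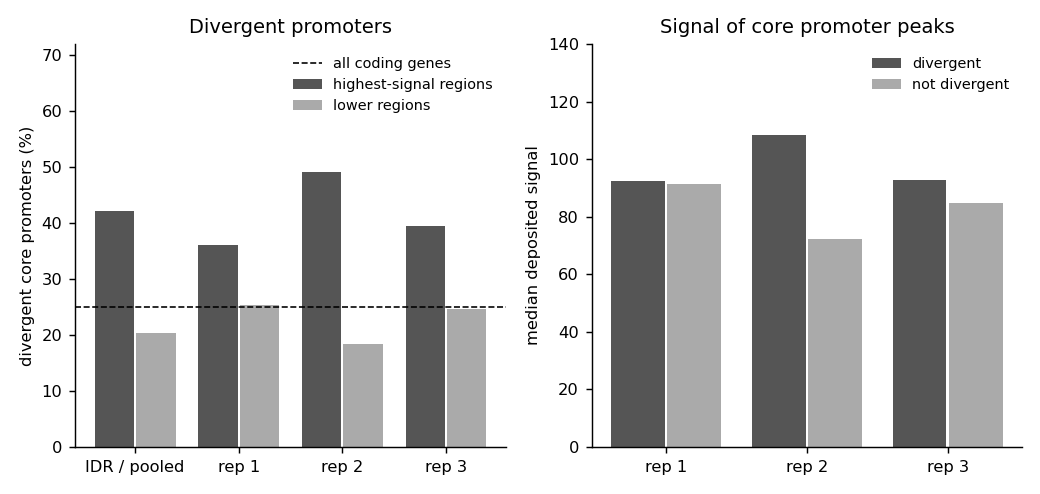
Left, the percentage of core promoter regions at divergent promoters among the highest-signal and the lower regions of each list, with the share of all coding genes as a dashed line; right, the median deposited signal of divergent and other members in each replicate. The share was higher among the strong regions in every list, while the signal difference was clear in replicate 2 (108 against 72.3) and small in replicate 1 (92.4 against 91.4).

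The strongest divergent member was at Chro, which encodes the chromodomain protein Chromator of polytene interbands, paired with Ssl1, a subunit of the general factor TFIIH. The TSSs are 105 bp apart, and the summit was 74 bp inside Chro, with 895, 1036 and 861 (mean 931 ± 93.2, SD, n = 3). The member between CenG1A, an Arf GTPase-activating protein gene, and mRpS23, of the mitochondrial ribosome, had 902, 959 and 817, 90 bp from the first TSS and 402 bp from the other. CG13390 and CG17294 start 238 bp apart, with a summit between them and signals of 782, 754 and 721. In each replicate CG13390 was the lowest of these 3, and Chro and CenG1A changed places in replicate 1.

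RpS27 and Nup37, a nucleoporin gene, start 144 bp apart; the summit was 1 bp from the RpS27 TSS, with 509, 781 and 564, and replicate 2 was the highest. CG11309 and CG7632 are 39 bp apart, with 671, 556 and 604. At mRpL23 and CG9004, 50 bp apart, the values were 490, 614 and 552. RpL7 and Ripalpha, whose product binds the single-strand DNA-binding factor RPA, are 30 bp apart, and the values were 524, 622 and 483. CG9147 and Fbw5, an F-box gene, are 134 bp apart, with 511, 542 and 524. The summit lay inside the nearest gene at Chro, CG11309, mRpL23 and RpL7 and on its upstream side at the other 4. At Chro, CG11309, mRpL23 and RpL7 the summit was also 179, 129, 114 and 77 bp from the partner's TSS.

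Cytosolic ribosomal protein genes were the list with the highest share of served members. A member lay at 72 of 86 genes (83.7%), against 6.94% of all other coding genes, and at 66, 63 and 70 of them in the replicates. The difference was 69.5, 67.5 and 74.1 percentage points (3 of 3 above 0, exact p = 0.25). The strongest were RpS27 and RpL7, given above, then RpL14 with 445, 394 and 486 and RpL23A with 349, 511 and 396. Their signal was also higher than that of other members. The median was 571 at the 72 and 234 at the other 904, and 199, 187 and 194 against 88.8, 83.3 and 86.2 in the replicates. The log2 difference was 1.16, 1.17 and 1.17 (exact p = 0.25), so its spread between replicates was small beside its size.

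The summits at ribosomal protein genes were close to the TSS. The median offset was −14.5 bp (quartiles −37 and 6.25), and −30 bp at the other members. In the replicates the median of their own summits was 4.5, −29 and −8.5 bp against −31, −44 and −31 bp, nearer the start in 3 of 3. They were found in the highest regions of all 3 replicates for 59 of 72 (81.9%), against 48.8% of the others. A divergent partner was present at 40.3% of them and at 42.4% of the others. A pooled region of any strength lay at 78 of the 86. Of the 14 genes not served, RpL40 missed the limit with a summit 103 bp away and RpS20 with one 147 bp away, while RpL5 had no IDR summit within 392332 bp. RpS10a, RpS15Ab, RpS5b, RpL10Aa, RpS19b and RpS28a among them belong to pairs of genes for the same ribosomal protein; how reads that match more than 1 place were handled is not given in the sources used here, and its part was not tested.

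Other lists of broadly used genes were nearer the 7.41% of all coding genes. Oxidative phosphorylation genes were served at 14 of 87 (10, 10 and 13 in the replicates), with ND-42 the strongest at 142, 150 and 119, followed by ND-51, ND-24 and COX5A. Translation factor genes were served at 8 of 51 (8, 5 and 10), led by eEF1gamma, a subunit of the elongation factor that recharges eEF1alpha, with 328, 590 and 451, then eEF5, eEF1alpha1 and eEF2. In replicate 2 no region covered the eEF1alpha1 and eEF2 summits. Both lists were above the other coding genes in 3 of 3 replicates, by 3.89, 5.40 and 7.24 and by 8.09, 3.69 and 11.9 percentage points (exact p = 0.25 for each). The IDR list was also cut to peaks found in the highest regions of both other replicates, with replicate 1, 2 or 3 set aside in turn. For oxidative phosphorylation the difference went from 8.73 points to 5.90, 4.99 and 3.79. For translation factors 8.30 became 1.41 with replicates 2 and 3 required, 10.3 with 1 and 3, and 1.61 with 1 and 2. It was thus low where replicate 2 was required.

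Mitochondrial ribosomal protein genes were served at 6 of 73 (6, 7 and 4), with mRpL23 far above mRpL37, mRpS7 and mRpS18B in pooled signal (1661 against 256, 224 and 211). Aminoacyl-tRNA synthetase genes were served at 3 of 35 (SerRS, AsnRS and AlaRS; 3, 4 and 4 in the replicates), vacuolar ATPase genes at 3 of 33 (Vha44, Vha36-1 and Vha55; 6, 2 and 5), Mediator and TBP-associated factor genes at 4 of 39 (MED7, MED6, MED25 and Taf11; 4, 4 and 5). Rab GTPase genes were served at 4 of 31 (Rab8, Rab1, Rab2 and Rab7; 3, 3 and 5) and spliceosome core genes at 4 of 32 (SmD3, Sf3b6, LSm7 and Prp19; 4, 2 and 3). Proteasome subunit genes were served at 2 of 48 (Rpn3 and Rpn11; 3, 1 and 4). The aminoacyl-tRNA synthetase, Mediator, Rab and spliceosome lists were above the other coding genes in 3 of 3 replicates (exact p = 0.25 for each) and the other 3 lists were not. All 7 counts are of 2 to 6 genes. The peaks at Vha44, MED6, Taf11 and Rab8 were nearer to the TSS of another gene, Hmgs, Naa80, und and Usp32.

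Genes of chromatin and promoter architecture were served at 5 of 18, and at 2, 3 and 7 in the replicates. Besides Chro and BEAF-32 they were Dref, whose product binds the DRE, with 298, 287 and 347, row with 129, 177 and 134, and Trf2, a TBP-related factor, found in replicates 1 and 3 with 54.2 and 73.9. Polycomb and Trithorax genes were served at 4 of 18 (4, 6 and 5). E(z), the histone methyltransferase of Polycomb repressive complex 2, had 263, 296 and 244, and Psc, ph-d and Su(z)12 were weaker, with pooled signals of 323, 306 and 304. The Dref peak is also that of RpL13, a ribosomal protein gene, whose TSS was 19 bp from the summit, against 65 bp for that of Dref. Both lists are small. The difference of the first from other coding genes was 20.4 points in the IDR list. Among the IDR peaks found in both other replicates it was 17.8, 11.3 and 12.4 without replicates 1, 2 and 3.

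The remaining lists had lower shares than the 7.41% of all coding genes. No member lay at any of the 8 Hox genes or the 73 other homeobox genes, in the IDR list or a replicate; the exact 95% upper limits, which cover counting error only, were 36.9% and 4.93%. Cell cycle genes had 0 of 20 (upper limit 16.8%; 0, 1 and 0 in the replicates). Of segmentation genes 1 of 26 was served, hry, the pair-rule repressor Hairy, with 101.04 and 99.3 in replicates 1 and 3 and no region in replicate 2. The heat shock list had 1 of 34, Hsc70-5, the mitochondrial Hsp70, with 184, 255 and 204, and the cytochrome P450 list 1 of 83, Cyp6u1, with 244, 204 and 198. The summit at Cyp6u1 was 81 bp from its TSS and 26 bp from that of Ufsp1. The upper limits for the segmentation (19.6%), heat shock (15.3%), Hox and cell cycle lists include the share of all coding genes, and those for the other homeobox (4.93%) and P450 (6.53%) lists do not. The limits take the genes of a list as independent, which was not checked, and are no test of a list. None of 179 chemosensory receptor genes (upper limit 2.04%), 118 cuticle protein genes (3.08%) or 111 replication-dependent histone genes (3.27%) was served. For cuticle protein and histone genes no pooled region of any strength lay at a core promoter either, and the histone genes are a repeated cluster in which placement of reads was not examined here. Genes known by a CG number were served at 259 of 6097 (4.25%), against 9.88% of named genes, and lower in 3 of 3 replicates (exact p = 0.25); named by the rule were CG14100, CG13390, CG11309 and CG9147.

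**Figure D4:**
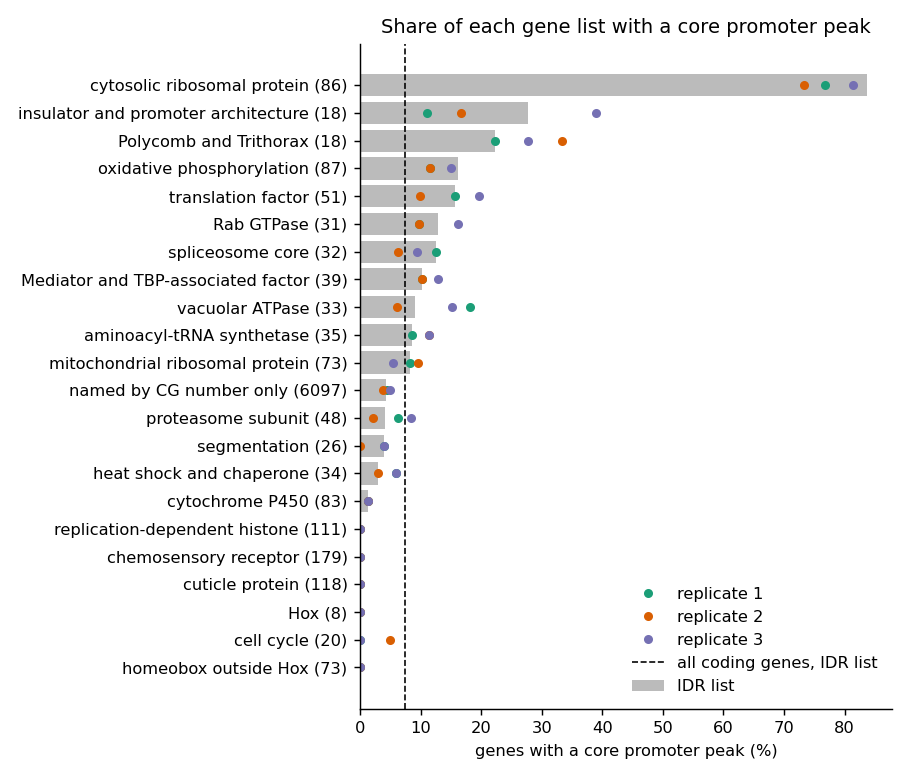
The percentage of genes in each of the 22 lists with a core promoter peak, with list sizes in brackets, for the IDR list (bars) and the 3 replicates (circles); the dashed line is the 7.41% of all coding genes. Cytosolic ribosomal protein genes stand at 83.7%, and the next list, insulator and promoter architecture, at 27.8%.

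Core promoter words were searched from 100 bases before to 50 after the nearest TSS of each member and of all 19607 coding TSSs, on both strands unless a position is given. The words of broadly used promoters were more frequent at members. DRE (TATCGATA) was at 10.1% of members against 6.25% of all TSSs, motif 1 (GGTCACAC) at 9.32% against 5.54%, and the motif 7 core (CAGCNCT) at 18.1% against 10.4%. Each was higher in 3 of 3 replicates, by 3.97, 3.70 and 4.58 points for DRE, 2.59, 2.14 and 3.72 for motif 1 and 4.57, 11.0 and 6.27 for motif 7 (exact p = 0.25 for each). DRE and motif 7 were also higher than at the weaker core promoter regions in 3 of 3 replicates, whereas motif 1 was lower in replicate 1, by −0.56 points. CAGCTG was at 15.3% against 11.8%, but at the proximal peaks at 15.4%; in the replicates it was higher than at proximal peaks by 0.12, 3.55 and 3.76 points. GTATNTTT was at 7.68% and 7.41%, within 0.53 points in every replicate.

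Of the words tied to a position, the TATA box and initiator were rarer at members than over all TSSs, and the TCT word and downstream element more frequent. TATAAA 40 to 20 bases before the TSS was at 2.97% of members and 6.80% of all TSSs, lower in 3 of 3 replicates (exact p = 0.25). TCAGT within 10 bases of the TSS was at 10.9% against 13.9%, but in replicate 1 at the level of all TSSs (exact p = 0.5); against weaker core promoter regions (20.1%) and TSSs of proximal peaks (20.6%) it was lower in 3 of 3. CTTTC or CTTTT within 5 bases was at 5.33% against 3.38%, higher in 3 of 3 (exact p = 0.25). At ribosomal protein genes 29 of 72 members (40.3%) held the TCT word, against 2.54% of other members. The share of other members was below the 3.38% of all TSSs, so the excess lay at ribosomal protein genes. Over all ribosomal protein TSSs it was 33.3%. DRE was at 18 of the 72 and at 8.96% of other members. Over all ribosomal protein TSSs DRE was at 23.3%, close to its share at the 72. A downstream element was searched from 24 to 34 bases after the TSS on the strand of the gene. It was spelled AGACGT with 3 variants (AGTCGT is the first, GGACGT is the next and GGTCGT is the last). This element was at 3.38% against 2.20%, higher in 3 of 3 (exact p = 0.25). Against weaker core promoter regions the difference was −0.50 points in the IDR list. In the replicates that difference was 0.04, −0.19 and 0.47 points, so its direction varied (exact p = 0.75). Without a set position, TATAAA was at 17.0% against 21.7% and TCAGT at 29.9% against 37.8%.

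GAGAG, the core of the site of GAGA factor, was at 20.5% of members and 20.3% of all TSSs, with replicates on either side. It was less frequent than at weaker core promoter regions (27.3%) and at proximal peaks (34.1%), in 3 of 3 replicates for both. CAGGTA, the core of the Zelda site, was at 3.28% against 3.09%. Of the AT-rich words, ATTAA was at 32.7% of members and 33.0% of all TSSs, and its direction differed between replicates (exact p = 0.75). Against weaker core promoter regions, at 24.7%, it was higher by 3.48, 6.94 and 6.60 points (exact p = 0.25). CATTAA, which contains ATTAA, was at 7.79% against 7.83%, TAATTA at 5.74% against 6.52% and CAATTA at 7.38% against 9.91%. None of these 4 was more frequent at members than at coding TSSs as a whole, but with a window from 200 bases before the TSS the first was higher by 4.97 points, CATTAA was by 1.89 and TAATTA was by 2.12. GC content of the window was 43.4% at members and 42.6% over all TSSs.

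**Figure D5:**
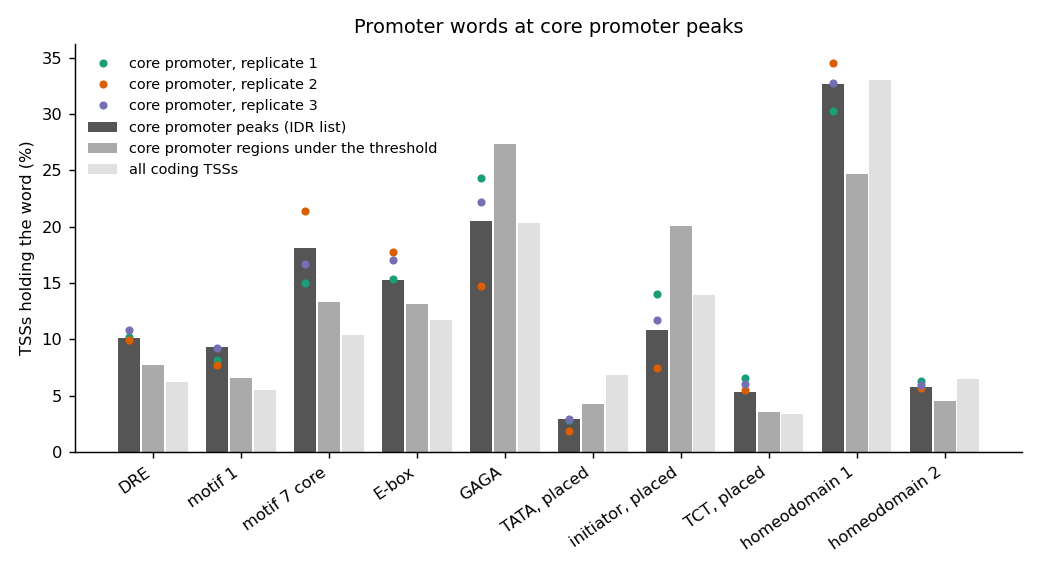
The percentage of TSSs that hold each word in the window of 100 bases before to 50 after, for members (dark bars, with circles for the replicates), core promoter regions under the threshold and all coding TSSs; homeodomain 1 is the word with an ATTAA core and 2 is TAATTA. DRE, motif 1 and motif 7 were higher at members than in both other groups of the pooled data, and the placed TATA box and initiator were lower.

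Where a word was present, its distance to the summit differed between words. The 99 members with DRE had it at a median of 38.5 bases before the TSS, and 60 of them (60.6%) had it within 50 bp of the summit. For motif 7 it was 107 of 177 (60.5%) and for CAGCTG 75 of 149 (50.3%). Motif 1, at a median of 10.5 bases before the TSS, was within 50 bp of the summit at 32 of 91 (35.2%). Motif 1 was thus less often close to the summit than DRE in these counts, which were not tested. Over all coding TSSs with the word, the median position was −29.5 bases for DRE and −0.5 for motif 1. The median summit offset of members was −28 bp. DRE is thus nearer to that position than motif 1 at coding TSSs in general, with or without a peak.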

How the data were processed

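What was measured is the position and strength of HHEX-GFP ChIP-seq regions in 3 biological replicates of whole embryos. Per the deposited file descriptions, the authors called regions on dm6 in each replicate and in the pooled reads against a control alignment and kept a thresholded IDR list. Names of the aligner and caller, and the IDR level, were not given in the sources used here. Both the signal and the −log10 q were deposited by the authors, and the latter has a ceiling in each list. The deposited summit offset is in bp from the region start. Lists on dm3 were not used.

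TSSs and genes came from Ensembl release 115 (build BDGP6.54, the assembly of dm6) and sequence from the RefSeq copy of genome release 6. Replicate lists were reduced to their 5586 highest-signal regions. Differences were computed within each list and tested over the 3 replicates with a two-sided exact sign-flip permutation test. Upper limits for the shares of gene lists are exact Clopper-Pearson limits at 95%. The members, 22 gene lists, 13 words on either strand, 4 words by position, tests and named genes (20 strongest members, 4 strongest served genes of a list, 8 strongest divergent pairs, 3 on either side of the limit, 5 weakest) were chosen with earlier results of these data known. BEAF-32, Diap1, brat, the ribosomal protein genes without a member and the nearer genes at shared peaks were named after their values were seen. Scripts were tested on simulated data and ran in Python 3.11.15 with numpy 2.4.6, pandas 2.3.3, SciPy 1.17.1 and matplotlib 3.10.9. Alternatives were other distance limits, gaps, windows and comparison groups, the first TSS of each gene, TSSs of any gene, the stronger part of each list, regions reaching a −log10 q of 2, and each replicate left out. For the last, the IDR list was cut to peaks in the highest-signal regions of both other replicates and was not made again.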

Additional observations from a re-analysis of the deposited data

How the results depend on the processing

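Of 466 alternative values of 48 results, 401 were classed as the same, 10 as moved and 55 as changed in sign. The 10 moved values were all of the genes served, the median offset and the share found in all replicates. Differences were classed as the same where their direction held, also where their size changed. The causes were not tested. The 1034 genes served became 510 with a limit of 50 bp, 1944 with 200 bp, 496 with the stronger part of the list, and 597 to 751 without a replicate. Without a replicate means here that only IDR peaks in the highest regions of both other replicates were kept. Members in all replicates were 84.7% in the stronger part of the list. Of all members, 56.9% to 72.2% were in both other replicates when 1 was left out. The signal against all other peaks changed sign with a limit of 200 bp (0.082) and ranged from −0.083 to 0.061 without a replicate, above 0 without replicate 1 (0.051) or 3 (0.061). The shares at core promoters, upstream and at divergent promoters and the signal against peaks to 500 bp kept their direction under each alternative run. The sizes of the shares changed. The core promoter difference, 9.83 points, ranged from 4.57 (50 bp limit) to 17.4 (200 bp limit). The upstream excess, 31.8 points, ranged from 16.2 (50 bp limit) to 49.9 (without replicate 1). The divergent difference, 17.3 points, ranged from 3.89 (200 bp gap, 13.5% against 9.64%) to 27.4 (stronger part).

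10 of the word results changed sign against the values in the report, in percentage points. GTATNTTT became −0.261 with a window from 50 before, and −0.261 against 1 TSS a gene. GAGAG became −1.34 (50 bp limit), −3.31 (stronger part), −2.42 (window from 200 before) and −3.78 to 0.8002 without a replicate, below 0 without replicate 1 or 3. CAGGTA became −0.0553 (50 bp) and −0.0700 (200 bp). In the window from 200 before, TATAAA became 2.75, ATTAA 4.97, TAATTA 2.12 and CATTAA 1.89. ATTAA was also above 0 in the stronger part (4.46) and without a replicate (0.147 to 4.20), as was CATTAA (1.22; 0.114 to 0.640; 0.123 with first TSSs). TAATTA was −0.217 to 0.201, above 0 without replicate 1.

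Comparison groups chosen after seeing the data gave, against weaker core promoter regions, GAGAG −6.84, TATAAA 0.698, CAGGTA −0.546, ATTAA 7.99, TAATTA 1.18, CAATTA 0.515, CATTAA 2.11 and the downstream element −0.500. Against proximal peaks they gave CAGCTG −0.107, GAGAG −13.6, TATAAA 3.00, ATTAA 9.05, TAATTA 2.07, CAATTA 0.768, CATTAA 2.26 and the downstream element −0.857.

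7 lists near the background changed sign. Mitochondrial ribosomal protein became −0.922 (50 bp), −0.821 (stronger part), −0.715 (−log10 q of at least 2) and −1.55 to −0.374 without a replicate. At 50 bp, aminoacyl-tRNA synthetase became −0.802, Mediator and TBP-associated factor −1.10 and spliceosome core −3.67. Mediator was −0.258 to 5.79 without a replicate, below 0 without replicate 2. Rab GTPase became −3.56 in the stronger part. At 200 bp segmentation became 1.45 and heat shock 3.72. No paired analysis was possible because there is 1 group. Read depth is unknown, so weak or missing regions in replicate 2 cannot be set against sequencing effort.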
